A study of Mus musculus with 12 samples.

Results

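The urea cycle enzymes, the synthase that makes their activator, their mitochondrial carriers and the liver-type glutaminase that feeds them ammonia were followed in livers of obese mice on a low protein or a standard protein diet. They were taken by gene symbol as Cps1, Otc, Ass1, Asl, Arg1, Nags, Slc25a13, Slc25a15 and Gls2, and all 9 were found, once each, among 56980 genes in the count matrix. The LPD group was given chow with 5% of energy as protein and the SPD group chow with 25%, each for 3 weeks from 8 weeks of age, with free access to food. All 12 animals carried the obese mutation of the leptin gene (strain B6.Cg-Lepob/J, ob/ob, genotype Lep-/-), were male and 11 weeks old, and gave 1 liver library each, 6 per diet. These mice lack leptin from birth, so neither diet group shows a lean liver. Bulk RNA was sequenced, and in such data fewer cells of a type and less RNA per cell cannot be told apart. For LPD replicate 1, the treatment and description labels name the standard protein content, against its title and library code. It was kept with the LPD livers, and results are also given with it counted as SPD.

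The urea cycle turns ammonia set free by amino acid breakdown into urea for excretion. It begins in the mitochondria of hepatocytes, where carbamoyl phosphate is made and joined to ornithine, and ends in the cytosol, where arginine is split into urea and ornithine. Its enzymes are richest in hepatocytes near the portal vein, while hepatocytes around the central vein capture the ammonia that escapes as glutamine. In rats, the amounts of the enzymes are known to follow the protein content of the diet.

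Library totals ran from 19404340 to 23681408 counts in LPD livers and from 19374676 to 23710930 in SPD livers. The 9 genes together took 0.593% to 0.757% of the counts of LPD livers and 0.638% to 0.954% of those of SPD livers. On the first principal component of all tested genes, which separated the diets, LPD replicates 2 and 5 lay apart from the other LPD livers (48.7 and 44.6, against 15.3 to 22.5). Hepatocyte markers were abundant in every liver, led by Alb with a mean of 57232 CPM in LPD and 65535 CPM in SPD livers (CPM, the read count scaled to library size). The kidney markers Umod, Slc12a1 and Aqp2 were at 0 in all libraries. Library codes begin LP4 or LP5 in LPD and SP1 or SP2 in SPD, with 4 and 2 libraries each. The labels do not say what the codes stand for, and no code occurs in both diets, so code and diet cannot be told apart.

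The diets were compared to ask how protein restriction changed the messages of nitrogen disposal. The cycle did not move as a block. In LPD livers Ass1, Arg1 and Gls2 fell, Nags and Slc25a13 rose, and Cps1, Otc, Asl and Slc25a15 did not pass. A gene was called at a p under 0.05 from edgeR's quasi-likelihood test, adjusted over all 13768 genes tested. By that rule 20.7% of tested genes were higher in LPD, 19.2% were lower and 39.9% were called in either direction, so 2 members higher and 3 lower of 9 is not far from the share among all genes. All 9 members passed the filter on low counts, and all but Nags had a mean log2 CPM of at least 7. Of the 1095 tested genes at that level, 60.1% were called in either direction and 22.6% were called lower in LPD. CPM of the diets did not overlap for Ass1, Arg1 and Slc25a13; among all tested genes, 9.73% lay wholly lower in LPD, 10.2% wholly higher and 19.9% either way.

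**Figure D1:**
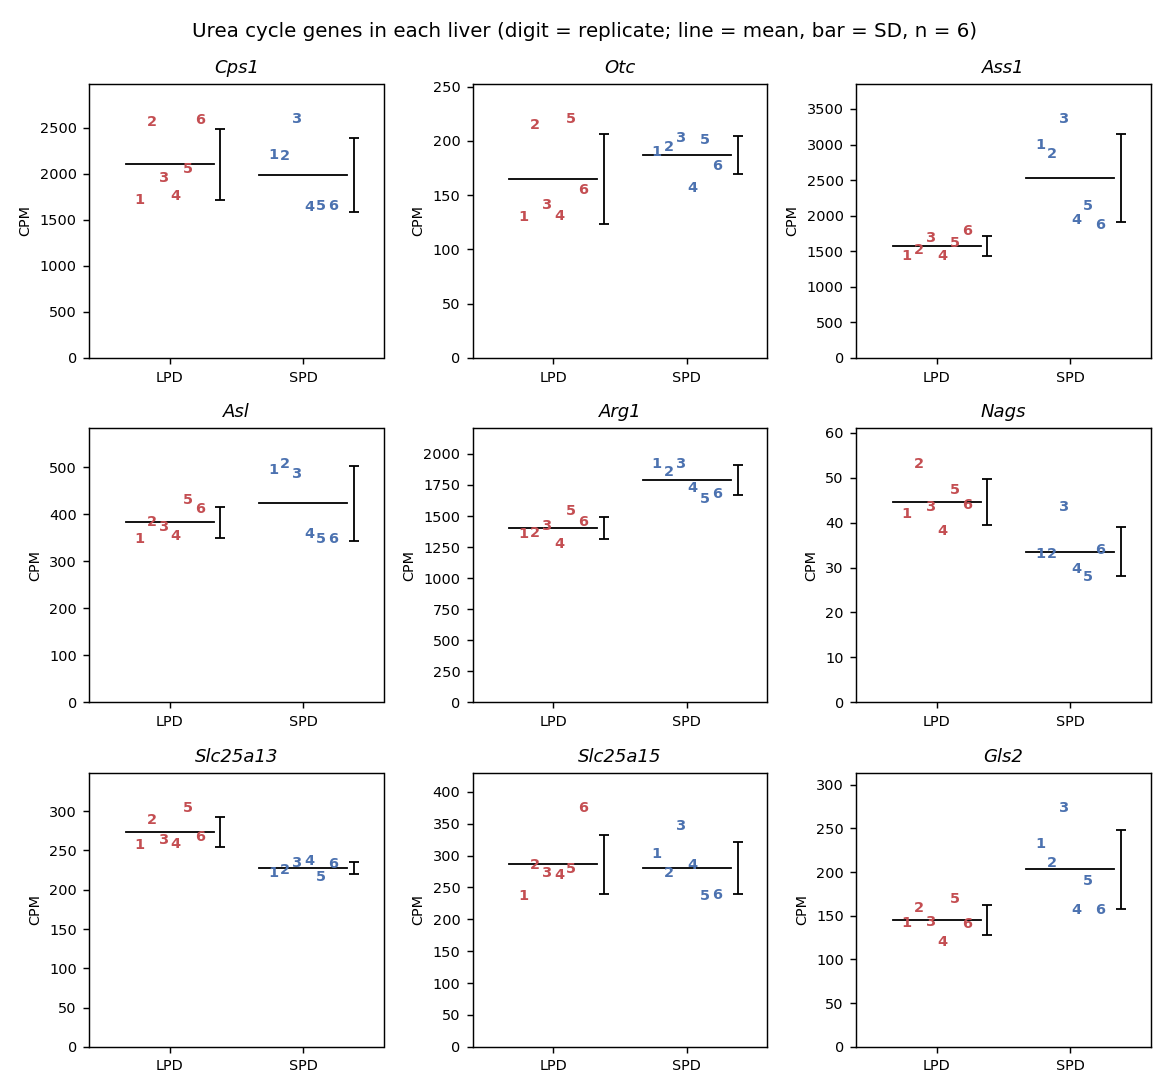
CPM (y axis, from 0) of each of the 9 genes in LPD and SPD livers; each digit is 1 liver and gives its replicate number, the line is the mean and the bar the SD over 6 livers. All LPD livers lie below all SPD livers for Ass1 and Arg1 and above them for Slc25a13, and LPD replicates 2 and 5 lie above the other LPD livers for Otc.

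Of the mitochondrial enzymes, Cps1 makes carbamoyl phosphate from ammonia and bicarbonate and is the entry step (ENSMUSG00000025991, chromosome 1, 67123026 to 67231259, plus strand, GRCm38). Its CPM had a lowest value of 1712, a median of 2000 and a highest value of 2587 in LPD livers, against 1634, 1918 and 2588 in SPD livers. The ranges of the diets nearly coincided. The log2 fold change of Cps1 was 0.083 ± 0.14 (LPD over SPD, ± SE, n = 6 per diet, edgeR adjusted p = 0.664), with a 95% interval of -0.21 to 0.37.

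Otc, ornithine transcarbamylase, joins carbamoyl phosphate to ornithine to give citrulline (ENSMUSG00000031173, chromosome X, 10252305 to 10321024, plus strand). Its CPM were 130, 215, 141, 131, 220 and 154 in LPD replicates 1 to 6, against 190, 194, 203, 157, 201 and 177 in SPD replicates 1 to 6. LPD replicates 2 and 5 lay above every SPD liver and the other 4 LPD livers below every SPD liver. Over all livers Otc did not pass (-0.18 ± 0.13, edgeR adjusted p = 0.294, 95% interval -0.46 to 0.098). Without LPD replicates 2 and 5 it was lower in LPD, by -0.43 ± 0.078 on the log2 scale (edgeR adjusted p = 0.000852), and limma-voom with sample weights, which gives less weight to libraries that stand apart, called it on all livers (-0.29, adjusted p = 0.049). Replicate 2 or 5 was also the LPD liver with the lowest summed CPM of the macrophage, stellate cell, endothelial, cholangiocyte, and lymphocyte and neutrophil markers, whose part in the Otc values was not tested.

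Of the cytosolic enzymes, Ass1, argininosuccinate synthase, joins citrulline to aspartate and so brings in the other nitrogen of urea (ENSMUSG00000076441, chromosome 2, 31470207 to 31520672, plus strand). Its CPM were 1426, 1522, 1685, 1428, 1614 and 1779 in LPD replicates 1 to 6, against 2988, 2869, 3354, 1942, 2143 and 1875 in SPD replicates 1 to 6. Every LPD liver lay below every SPD liver, and the SPD livers themselves fell into a high set of replicates 1 to 3 and a lower set of replicates 4 to 6. Ass1 fell to 1576 ± 143 CPM in LPD livers, against 2528 ± 621 CPM in SPD livers (SD, n = 6), a log2 fold change of -0.68 ± 0.13 (edgeR adjusted p = 0.000975). In size that is larger than the change of 89.1% of tested genes, and it was called in all 22 alternatives, with values from -0.88 to -0.56.

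Asl, argininosuccinate lyase, releases arginine and fumarate (ENSMUSG00000025533, chromosome 5, 130011258 to 130029247, minus strand). Its CPM had a lowest value of 347, a median of 379 and a highest value of 430.5 in LPD livers, and were 494, 507, 485, 357, 347 and 348 in SPD replicates 1 to 6. The SPD livers split as for Ass1, and the LPD livers lay from the lower SPD set upward without reaching the high one. Asl did not pass (-0.14 ± 0.11, edgeR adjusted p = 0.310, 95% interval -0.37 to 0.085). Among the LP4 and SP1 libraries alone it was called lower (-0.34, edgeR adjusted p = 0.0339). Left out there are SPD replicates 5 and 6, of the lower set, and LPD replicates 5 and 6. The latter had the highest Asl values of the LPD livers, 430.5 and 411 CPM.

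Arg1, liver arginase, splits arginine into urea and ornithine (ENSMUSG00000019987, chromosome 10, 24915221 to 24927484, minus strand). Its CPM ran from 1279 over a median of 1392 to 1539 in LPD livers, against 1640, 1788 and 1920 in SPD livers. Every LPD liver lay below every SPD liver, though the gap was narrow. Arg1 fell by a log2 fold change of -0.35 ± 0.065 (edgeR adjusted p = 0.000601) and was called in all 22 alternatives, from -0.45 to -0.29. It had the narrowest spread of the 5 cycle enzymes, with a coefficient of variation of 6.42% in LPD and 6.87% in SPD livers, while that of Ass1 was 9.05% in LPD and 24.6% in SPD livers.

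**Figure D2:**
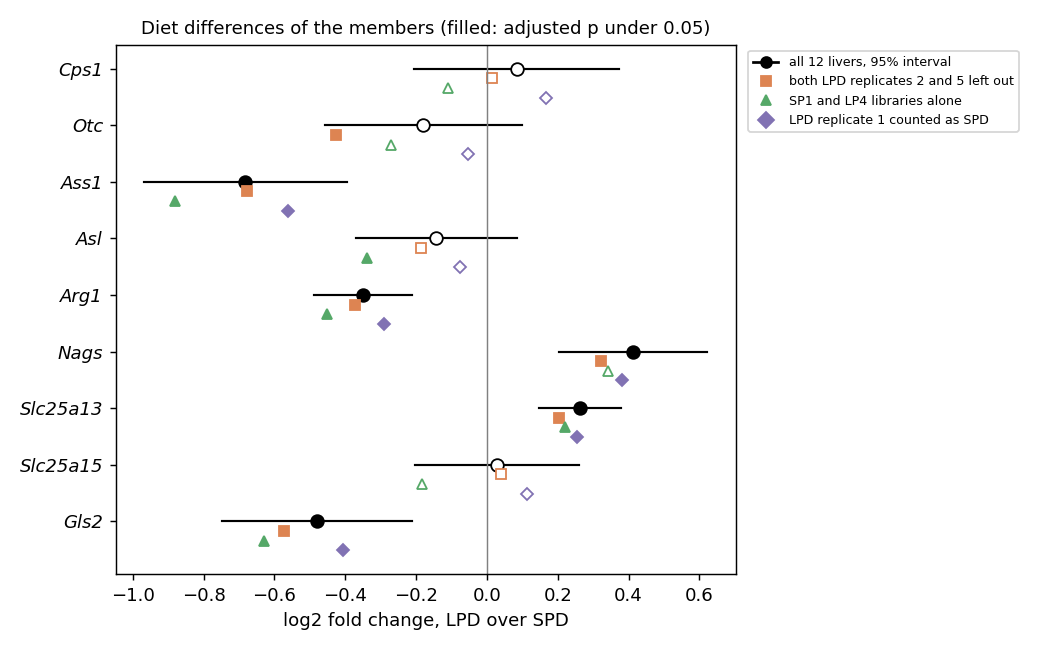
Log2 fold change, LPD over SPD (x axis), of each gene; circles with lines are the values over all 12 livers with their 95% intervals, and the other markers are 3 alternatives, filled where the adjusted p was under 0.05. Ass1, Arg1, Gls2 and Slc25a13 are filled throughout, Otc is filled only for the fit without LPD replicates 2 and 5, and Asl only for the LP4 and SP1 libraries.

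Nags makes N-acetylglutamate, without which Cps1 is inactive (ENSMUSG00000048217, chromosome 11, 102145513 to 102149477, plus strand). Its CPM were 41.9, 53.1, 43.5, 38.2, 47.2 and 43.9 in LPD replicates 1 to 6, against 33, 33, 43.5, 29.6, 28.0 and 33.9 in SPD replicates 1 to 6. SPD replicate 3 reached the LPD range and the other 5 SPD livers lay below every LPD liver. Nags rose to 44.6 ± 5.07 CPM in LPD livers, against 33.5 ± 5.42 CPM in SPD livers, a log2 fold change of 0.41 ± 0.099 (edgeR adjusted p = 0.00383). The call was lost among the LP4 and SP1 libraries alone (0.34, adjusted p = 0.0673), where 4 livers per diet remain, and held in the other 21 alternatives. A gene on the opposite strand, Gm11586, overlaps Nags and held 2.19% as many counts. Whether the counting used strand is not stated in the labels.

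The carrier Slc25a13, citrin, hands mitochondrial aspartate to the cytosol, where Ass1 uses it (ENSMUSG00000015112, chromosome 6, 6041218 to 6217173, minus strand). Its CPM were 257, 289, 264, 258, 304 and 268 in LPD replicates 1 to 6, against 222, 226, 233, 237, 216 and 232 in SPD replicates 1 to 6. All LPD livers lay above all SPD livers, with LPD replicates 2 and 5 highest. Slc25a13 rose by 0.26 ± 0.054 on the log2 scale (edgeR adjusted p = 0.00136) and was called in all 22 alternatives, from 0.20 to 0.28, with the smallest value where LPD replicates 2 and 5 were left out. Its SPD livers did not split as those of Ass1 did, with a coefficient of variation of 3.49%.

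The other carrier, Slc25a15, exchanges cytosolic ornithine for mitochondrial citrulline (ENSMUSG00000031482, chromosome 8, 22375551 to 22398597, minus strand). It ran from 236 over a median of 276 to 374 CPM in LPD livers, against 237, 279 and 346 CPM in SPD livers. LPD replicate 6 stood above all the others at 374 CPM. Slc25a15 did not pass (0.029 ± 0.11, edgeR adjusted p = 0.861, 95% interval -0.20 to 0.26).

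Gls2, the liver-type glutaminase, frees ammonia from glutamine in periportal mitochondria (ENSMUSG00000044005, chromosome 10, 128194457 to 128210004, plus strand). Its CPM were 142, 159, 142, 120, 170 and 140 in LPD replicates 1 to 6, against 232, 210, 273, 157, 190 and 156 in SPD replicates 1 to 6. LPD replicates 2 and 5 reached above SPD replicates 4 and 6, so the diets overlapped. Gls2 fell by a log2 fold change of -0.48 ± 0.13 (edgeR adjusted p = 0.00684) and was called in all 22 alternatives, with its highest adjusted p, 0.0486, when LPD replicate 1 was moved to the SPD livers (-0.41). Spryd4 lies on the opposite strand and overlaps Gls2, with 14.7% as many counts, and was higher in LPD (0.18 ± 0.050, edgeR adjusted p = 0.0114).

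Promoter windows of 250 bases before the RefSeq start (GRCm38.p6) were at hand for 5 of the 9 members, Otc, Ass1, Nags, Slc25a13 and Slc25a15. The windows of Slc25a13 and Nags, the members that rose, are shown whole, 5′ to 3′, with a match in capitals to the E-box CACGTG, the CCAAT box or the GC box GGGCGG on either strand. The Slc25a13 window is chr6:6217174-6217423, minus strand, and that of Nags is chr11:102145263-102145512, plus strand.
Slc25a13: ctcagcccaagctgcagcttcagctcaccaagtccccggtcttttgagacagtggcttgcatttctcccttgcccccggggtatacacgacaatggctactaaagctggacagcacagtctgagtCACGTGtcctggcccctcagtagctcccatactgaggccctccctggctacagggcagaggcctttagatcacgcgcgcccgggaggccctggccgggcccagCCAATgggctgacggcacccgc
Nags: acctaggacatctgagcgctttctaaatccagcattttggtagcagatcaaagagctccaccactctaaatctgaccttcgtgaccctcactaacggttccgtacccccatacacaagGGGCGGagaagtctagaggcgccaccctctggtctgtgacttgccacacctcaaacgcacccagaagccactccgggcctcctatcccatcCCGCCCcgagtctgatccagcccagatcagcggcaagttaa
Both windows are free of TATAAA, of the full cyclic AMP response element TGACGTCA, of the C/EBP-ATF site TGATGNAA and of the C/EBP site TTGCNNAA, as are those of the other 3 genes. Among 32851 windows of all genes, 12.4% held TATAAA, 1.55% TGACGTCA, 3.45% TGATGNAA and 9.56% TTGCNNAA. The Slc25a13 window also held TGACG, the core of the cyclic AMP response element, 9 to 13 bases before the start, and 17.8% of windows held it. CCAAT was found in 33.8% of windows and GGGCGG in 32.7%.

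The E-box is a site for basic helix-loop-helix factors, and 6.02% of all windows held it. By the gene starts of the annotation, that of Slc25a13, 120 to 125 bases before the start, was the 1 E-box of these windows that lay outside the gene. The RefSeq windows of Ass1 and 1 of the 2 of Slc25a15 reach into the annotated genes, and their E-boxes, 31 to 36 and 72 to 77 bases before the RefSeq start, lay inside them, as did the GC box of the Ass1 window. The GC boxes of Nags and those of the other Slc25a15 window lay outside. No E-box was found in the windows of Otc or Nags.

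Levels between genes were compared per length, as TPM, counts divided by gene length and then scaled to library size, with the gene lengths of the deposited matrix. Arg1 averaged 1754 ± 90.5 TPM in LPD and 2191 ± 163 TPM in SPD livers, and Ass1 1719 ± 177 TPM in LPD and 2696 ± 674 TPM in SPD livers, and these 2 led the order in every liver. Cps1 came next with 699 ± 126 TPM in LPD and 647 ± 137 TPM in SPD livers, then Asl with 388 ± 26.6 TPM in LPD and 419 ± 76.1 TPM in SPD livers. Nags was lowest in every liver, with 40.6 ± 3.19 TPM in LPD and 30.0 ± 5.70 TPM in SPD livers.

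Slc25a13, Slc25a15, Otc and Gls2 lay between 91.5 and 210 TPM in LPD and between 110.5 and 200.5 TPM in SPD livers, and neighbours among these 4 overlapped in both diets. Slc25a13 averaged 162 TPM in LPD livers, the highest mean of the 4, and 132 TPM in SPD livers, the lowest of the 4. Gls2 averaged 104 TPM in LPD livers and 143 TPM in SPD livers. Arg1 and Ass1 overlapped each other in both diets too, while Cps1, Asl and Nags overlapped none of their neighbours in the order in either diet. Summed over the 9 members, the level was 5152 ± 393 TPM in LPD and 6551 ± 1095 TPM in SPD livers. Ass1 made up 33.3 ± 1.38% of that sum in LPD and 40.7 ± 3.52% in SPD livers, Cps1 13.5 ± 1.72% in LPD and 9.82 ± 0.444% in SPD livers, and Arg1 34.1 ± 1.59% in LPD and 33.9 ± 3.35% in SPD livers.

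Ratios of 2 genes within a liver do not depend on how libraries are scaled, and 8 were tested by exact two-sided permutation over all assignments of livers to diets, adjusted over the 8. Asl over Ass1 was 0.243, 0.252, 0.222, 0.247, 0.267 and 0.231 in LPD replicates 1 to 6 (a ratio of CPM), against 0.165, 0.177, 0.145, 0.184, 0.162 and 0.186 in SPD replicates 1 to 6. The diets did not overlap, and the high and low SPD sets of Ass1 and Asl were not seen in their ratio. The mean log2 ratio was -2.04 ± 0.093 in LPD and -2.56 ± 0.14 in SPD livers (SD, n = 6), a difference of 0.52 (exact permutation p = 0.00217, the smallest that 6 against 6 livers can give, adjusted p = 0.00866).

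Arg1 over Asl was from 3.53 to 3.92 in LPD livers, and 3.88, 3.65, 3.96, 4.82, 4.73 and 4.82 in SPD replicates 1 to 6. The SPD replicates 1 to 3 lay within or next to the LPD range and replicates 4 to 6 well above it. The difference in mean log2 ratio was -0.22 (exact permutation p = 0.0152, adjusted p = 0.0404). It lost its call without SPD replicate 4 (-0.19), without SPD replicate 5 (-0.20) and without any 1 LPD liver (-0.24 to -0.21; adjusted p from 0.0519 to 0.107 over these 8). Otc over Cps1 (-0.30, adjusted p = 0.0981) and Ass1 over Otc (-0.44, adjusted p = 0.0727) did not pass by the same exact test. Otc over Cps1 was called without LPD replicate 5 (-0.39, adjusted p = 0.0289) and Ass1 over Otc without SPD replicate 6 (-0.51, adjusted p = 0.0485).

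**Figure D3:**
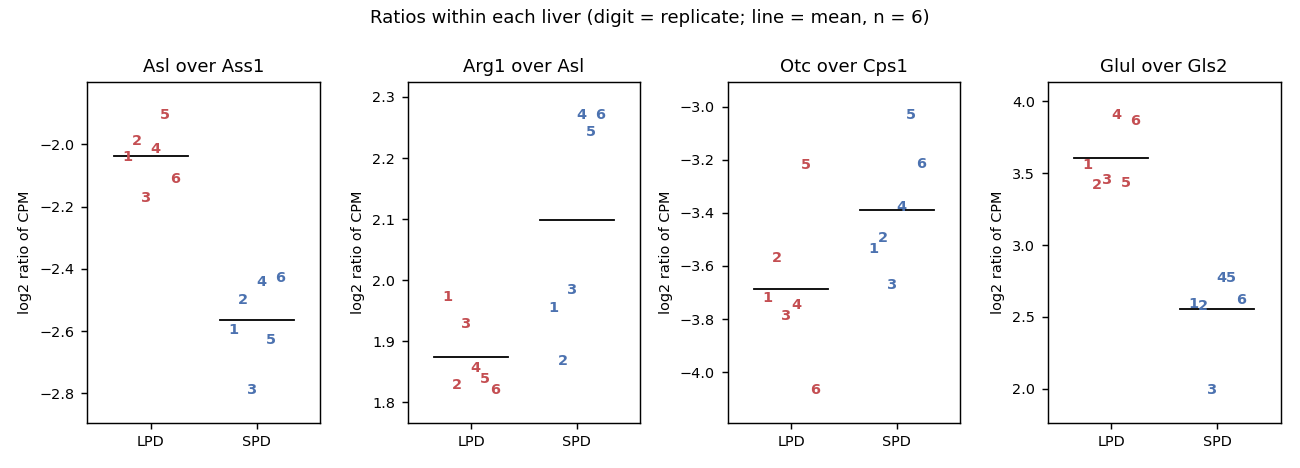
Log2 ratio of CPM within each liver (y axes differ between panels) for 4 gene pairs; each digit is 1 liver and gives its replicate number, and the line is the mean of 6. The diets do not overlap for Asl over Ass1 and Glul over Gls2, both higher in LPD, and SPD replicates 4 to 6 lie above all other livers for Arg1 over Asl.

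Several members shared the division of the SPD livers. In SPD replicates 1 to 3, Cps1, Ass1, Asl, Arg1 and Gls2 were each above every one of replicates 4 to 6, Cps1 with 2189 to 2588 CPM in those 3 livers and 1634 to 1647 CPM in the other 3. SPD replicates 1 to 4 share the library code SP1. The high set thus lies wholly within that code, and of the lower set only replicate 4 has it. The part of the codes in the division was not tested. Of 36 pairs of members, 36 were positively correlated over the 6 LPD livers and 32 over the 6 SPD livers, where Slc25a13 ran against Otc (r = -0.62), Ass1 (-0.15), Asl (-0.081) and Gls2 (-0.23), with a median Pearson r of 0.642 in LPD and 0.696 in SPD livers. By exact permutation within a diet, adjusted over the pairs, 2 pairs passed in LPD and 0 in SPD for Pearson's r (8 and 7 at an unadjusted p under 0.05), and 0 in either diet for Spearman's rho. With the diet means removed and all 12 livers together, 15 of 36 pairs passed for Pearson's r and 8 for Spearman's rho (permutation within diets, 100000 resamples). Since SPD livers fell into 2 sets, no pooled coefficient of a pair of members is given. The same counts were not taken for pairs of other genes. They therefore do not tell whether the members vary together more than other genes do.

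**Figure D4:**
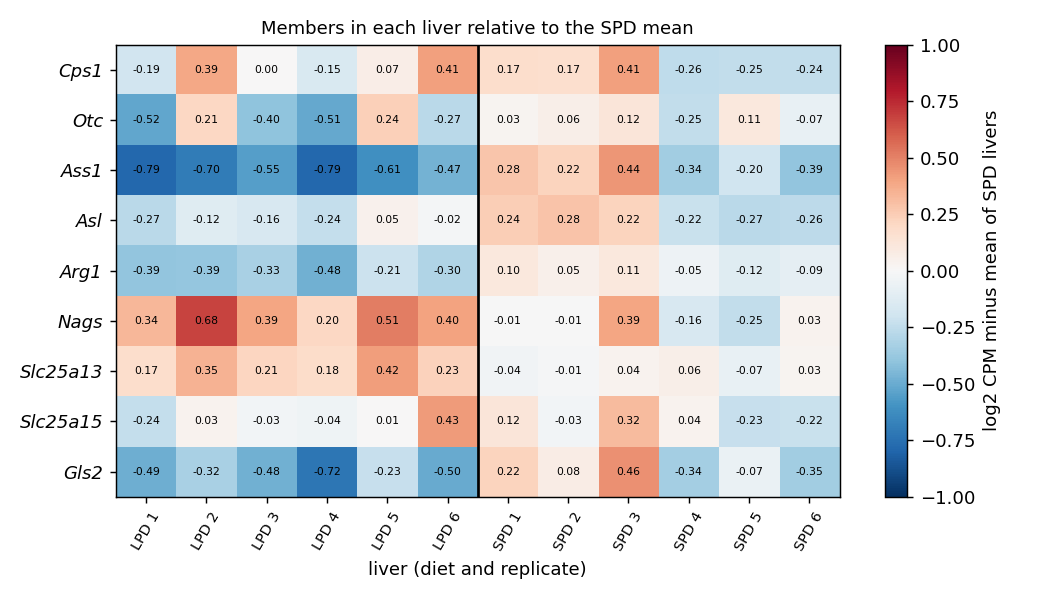
Log2 CPM minus the mean of the SPD livers (colour and printed value) for each gene (rows) in each liver (columns, LPD left of the line). Ass1, Arg1 and Gls2 are below 0 in all LPD livers, Nags and Slc25a13 above 0 in all of them, and SPD replicates 1 to 3 are above replicates 4 to 6 for Cps1, Ass1, Asl, Arg1 and Gls2.

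By Pearson r of deviations from the diet mean over the 12 livers, among 8136 other genes, Cyp27a1 was the gene most like both Ass1 (0.954) and Asl (0.921). Gstk1 (0.963) and Dpyd (0.960) were most like Gls2, and N4bp2l2 (0.926) and Nde1 (0.920) most like Cps1. For Arg1 they were Atg2a (0.958) and Cdo1 (0.919), and for Slc25a13 Kpna1 (0.950) and Perp (0.924). These are the highest of many coefficients, the livers share library and depth, and the division of the SPD livers enters the coefficients too. They are given as a description only. Between diets, Cyp27a1 was higher in LPD (0.49 ± 0.085, edgeR adjusted p = 0.000332) where Ass1 was lower. So was Adora1, the next most like Ass1 (r = 0.909), by 1.12 ± 0.10 (adjusted p = 9.3e-07). Cdo1 was higher (0.85 ± 0.098, adjusted p = 1.05e-05) where Arg1 was lower. Dpyd was lower (-0.25 ± 0.080, adjusted p = 0.0220) as Gls2 was, and Perp higher (0.25 ± 0.051, adjusted p = 0.00143) as Slc25a13 was. Mtmr4, among the 2 most like Nags (r = 0.927), was higher (0.33 ± 0.10, adjusted p = 0.0148) as Nags was.

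The paralogs Arg2, Slc25a12 and Slc25a2 were scarce in these livers. Arg2, the mitochondrial arginase of other tissues, averaged 0.666 TPM in LPD and 1.08 TPM in SPD livers, and did not pass (-0.73 ± 0.36, edgeR adjusted p = 0.120), although it did without LPD replicate 4 (-1.09, adjusted p = 0.0173). Slc25a12, the aspartate carrier of muscle and brain, averaged 6.34 TPM in LPD and 5.85 TPM in SPD livers and did not pass (0.083 ± 0.063, edgeR adjusted p = 0.314). Slc25a2, a close relative of Slc25a15, was at 0 in 6 of the 12 livers and at most 0.201 CPM, too few counts to be tested.

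Outside the cycle, the message of glutamine synthetase stood opposite to that of Gls2. Glul, the glutamine synthetase of pericentral hepatocytes, rose to 1768 ± 164 CPM in LPD livers, against 1178 ± 166 CPM in SPD livers (0.59 ± 0.093, edgeR adjusted p = 0.000170), with no overlap. Glul over Gls2 was 11.8, 10.7, 11.0, 15.0, 10.8 and 14.5 in LPD replicates 1 to 6, against 6.02, 5.96, 3.98, 6.82, 6.84 and 6.14 in SPD replicates 1 to 6. The diets did not overlap, and the difference in mean log2 ratio was 1.05 (exact permutation p = 0.00217, adjusted p = 0.00866). Counts in the gene lists from here on stand against 20.7% of all tested genes called higher in LPD and 19.2% called lower. Of 9 tested genes of ammonia and glutamine handling, 3 rose, 1 fell and 5 missed the threshold, with a median log2 fold change of 0.17, against -0.00059 over all genes. None fell in 8 of the 12 fits that leave out 1 library, SPD replicate 1, 2, 3, 5 or 6 or LPD replicate 2, 5 or 6. Beside Glul, the glutamine transporter Slc38a2 (0.88 ± 0.12) and the transporter chain Slc3a2 (0.96 ± 0.077) rose. Glutamate dehydrogenase Glud1, which also frees ammonia, had 1025 CPM in LPD and 938 CPM in SPD livers (0.13 ± 0.067, edgeR adjusted p = 0.141), and was called without LPD replicate 4 (0.17, adjusted p = 0.0384).

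A list drawn up around aspartate, fumarate and bicarbonate also held the alanine transaminases. In it 1 of 10 genes rose and 3 fell, with a median of 0.013, and 2 rose without LPD replicate 3 or 4. Alanine transaminase Gpt rose (0.41 ± 0.084). Fumarase Fh1 (-0.43 ± 0.059), which takes up the fumarate that Asl releases, and cytosolic aspartate transaminase Got1 (-0.78 ± 0.23) fell. So did Car5b (-0.82 ± 0.14), a mitochondrial carbonic anhydrase at 2.46 CPM in LPD and 4.35 CPM in SPD livers. Its more abundant paralog Car5a, at 39.2 CPM in LPD and 29.4 CPM in SPD livers, did not pass (0.41 ± 0.18, edgeR adjusted p = 0.0790). The Got1 call was lost without LPD replicates 2 and 5 together (-0.60, edgeR adjusted p = 0.0629) and when LPD replicate 1 was moved to the SPD livers (-0.68, edgeR adjusted p = 0.0578). Of 5 tested mitochondrial carriers beside the cycle, 0 rose and 3 fell, the citrate carrier Slc25a1 (-0.87 ± 0.063) and the dicarboxylate carrier Slc25a10 (-0.27 ± 0.060) among them. The third was Slc25a11, the oxoglutarate carrier (-0.15 ± 0.050, edgeR adjusted p = 0.0299). Its call was lost in 8 of the 12 fits that leave out 1 library, SPD replicate 1, 2, 3 or 5 or LPD replicate 2, 3, 4 or 6 (-0.15 to -0.12, adjusted p from 0.0501 to 0.0768), without the filter, with LPD replicate 1 moved to the SPD livers and among the LP4 and SP1 libraries. None rose by DESeq2 or limma-voom either, and 0 were higher at an unadjusted p under 0.05 in edgeR. Slc25a13 differed in sign from those that fell.

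Of 11 tested genes that use arginine or ornithine, 4 rose and 3 fell, with a median of -0.13; 2 rose without LPD replicate 3 and with LPD replicate 1 moved to the SPD livers. Ornithine decarboxylase Odc1, the first enzyme of polyamine synthesis (0.42 ± 0.079), and Agmat (0.38 ± 0.093) rose, though Agmat was not called among the LP4 and SP1 libraries (0.27, edgeR adjusted p = 0.0927). Gatm, which starts creatine synthesis from arginine (-0.46 ± 0.091), and Aldh18a1, of proline and ornithine synthesis (-0.91 ± 0.23), fell. Oat, ornithine aminotransferase, had 462 CPM in LPD and 553 CPM in SPD livers and did not pass (-0.26 ± 0.24, edgeR adjusted p = 0.414), although it did among the LP4 and SP1 libraries (-0.71, adjusted p = 0.0212). Aqp9, a channel for glycerol and urea, rose (0.35 ± 0.062, edgeR adjusted p = 0.000378) and was the 1 tested gene of 4 urea and glycerol channels.

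Of 16 genes known to regulate the cycle or its enzymes, 9 rose, 1 fell and 6 missed the threshold. Among all tested genes 20.7% were higher and 19.2% lower. The median log2 fold change of the 16 was 0.26, and without SPD replicate 4, 2 of them fell. Hnf4a, a hepatocyte transcription factor (0.41 ± 0.060), Klf15, a regulator of amino acid breakdown (0.53 ± 0.074), and the mitochondrial deacetylase Sirt3 (0.40 ± 0.070) rose. Sirt5, which acts on Cps1, fell (-0.32 ± 0.093, edgeR adjusted p = 0.0142), a call lost among the LP4 and SP1 libraries (-0.28, adjusted p = 0.112).

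Genes of the periportal zone, where the cycle is richest, moved in both directions. Of 10 periportal genes, 1 rose, 3 fell and 6 missed the threshold, their median log2 fold change being -0.021, among them Igfals (1.11 ± 0.14), Cyp2f2 (-0.68 ± 0.10) and Aldh1b1 (-1.01 ± 0.10), and 2 rose when LPD replicate 4, LPD replicate 6 or SPD replicate 3 was left out. Of 12 pericentral genes, 5 rose and 1 fell, with a median of 0.27, among them Cyp2e1 (1.85 ± 0.16) and Gstm1 (-0.92 ± 0.11). Summed CPM ran from 4173 to 5246 in LPD and from 4238 to 5368 in SPD livers for the periportal genes, and from 11739 to 16756 in LPD and from 6985 to 9908 in SPD livers for the pericentral genes. Cyp2e1 alone set that direction: without it the pericentral sum ran from 5256 over a median of 5523 to 6066 CPM in LPD livers, and from 5314 over a median of 6959 to 7366 CPM in SPD livers.

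Some markers of other cell types also differed with diet. The lists are short, and their counts stand against 19.2% of all tested genes called lower in LPD and 20.7% called higher. Of 8 macrophage markers 2 fell, with summed CPM of 301 to 438 in LPD and 435 to 517 in SPD livers. That count was 4 without LPD replicate 1 or 3, when LPD replicate 1 was moved to the SPD livers and with the replicate number as a block. It was 1 among the LP4 and SP1 libraries. Of 7 stellate cell markers 3 fell (336 to 565 CPM in LPD and 458 to 651 CPM in SPD livers), Pdgfrb with a call lost in 10 of the 12 fits that leave out 1 library, all but those without SPD replicate 5 or LPD replicate 1, and 1 fell among the LP4 and SP1 libraries.

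Of 6 endothelial markers 1 fell (291 to 346 CPM in LPD and 316 to 350.2 CPM in SPD livers). The count was 2 without SPD replicate 6, LPD replicate 1 or LPD replicates 2 and 5, and with LPD replicate 1 moved to SPD. It was 3 by limma-voom and with the replicate number as a block, and 0 among the LP4 and SP1 libraries. Of 5 cholangiocyte markers 1 fell, Spp1 (-1.95 ± 0.29), and 2 without LPD replicate 1 or with it moved to the SPD livers. Spp1 made up nearly all of their sum, which was 43.1 to 117 CPM in LPD and 156 to 449 CPM in SPD livers with it, and 4.51 to 9.98 CPM in LPD and 5.08 to 7.69 CPM in SPD livers without it. The median log2 fold change of the 5 was -0.0078. Of 4 tested lymphocyte and neutrophil markers 1 fell, with sums of 11.9 to 20.5 CPM in LPD and 19.3 to 34.9 CPM in SPD livers. None fell without SPD replicate 1, 3 or 6 or LPD replicate 1, 2 or 5. Nor did any by limma-voom, without the filter, with a stricter one or among the LP4 and SP1 libraries. The same held without LPD replicates 2 and 5 and with LPD replicate 1 moved to the SPD livers. By DESeq2 and with the replicate number as a block 2 fell. Of the hepatocyte markers, 2 of 6 rose and 0 fell by edgeR, and 0 were lower at an unadjusted p under 0.05 or by DESeq2. Alb was called lower by limma-voom (-0.26, adjusted p = 0.0285), without LPD replicate 5 (-0.27, edgeR adjusted p = 0.0451) and without LPD replicates 2 and 5 (-0.34, edgeR adjusted p = 0.00522). The part of cell composition in the results above was not tested.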

How the data were processed

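RNA of 12 livers was sequenced from libraries made with a TruSeq kit, per the labels' protocols. TopHat, DESeq2 and the build mm10 are named, without version or role, per the submitters' processing notes; no source used here gives the counting program, the annotation or the use of strand. The authors deposited an estimated count (expected count) per gene, unscaled, with 17.1% to 18.9% of nonzero values not whole, and a gene length.

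These were rounded to whole numbers. edgeR 4.0.16 in R 4.3.3 ran filterByExpr (minimum count 10, total 15), TMM, and the quasi-likelihood test of LPD over SPD without covariates. SE is the absolute log2 fold change over the square root of F. CPM use TMM-scaled totals, and log2 CPM a prior count of 2. TPM and ratios were computed from the same counts. The fit was tested on simulated counts, where it missed part of the changes put in, more of the small ones. Coordinates come from the GENCODE M21 annotation (GRCm38, the same assembly as mm10).

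The members, gene lists and tests were chosen with earlier results of these data known. Beside the 9 members, Glul and 3 paralogs, the text names up to 3 called genes per list and direction and up to 2 others. For each member it also names the 2 most alike genes. Spryd4, Gm11586, Car5a and the kidney markers at 0 were named after their values were seen. Some results under this rule, 1 of the 8 ratios among them, are not reported here. Alternatives were other scalings, filters and tests (DESeq2 1.42.0, limma-voom 3.58.1), the replicate number as a block, leaving out libraries, LPD replicate 1 counted as SPD, and the LP4 and SP1 libraries alone; marker sums without Cyp2e1 or Spp1 were added after seeing the data. The labels give 6 mice per diet, taken here as 1 mouse per library. No 2 libraries were alike within sampling noise.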

Additional observations from a re-analysis of the deposited data

Results flagged for a closer look

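Among 44 sets of 6 values examined (14 genes and 8 ratios in each diet), 3 held a liver farther from its neighbours than Dixon's 95% limit for 6 samples allows, where chance flags about 1 set in 20. LPD replicate 6 had the highest Slc25a15 level of its diet, 374 CPM, with 0.647 of the range between it and the next liver. SPD replicate 3 had the lowest log2 ratio of Glul over Gls2, 1.99, with 0.746 of the range below the next. SPD replicate 6 was the 1 SPD liver with any Slc25a2, at 0.0493 CPM, which makes its share of the range 1 and rests on a single count.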

How the results depend on the processing

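Ass1, Arg1, Gls2 and Slc25a13 kept their direction and their call in all 22 alternatives and Nags in 21. Over all members and alternatives, 189 fold changes kept direction and call, 5 changed sign, 3 gained a call and 1 lost it. Among all genes, 5496 were called in all livers and 3520 among the LP4 and SP1 libraries alone. Among the LP4 and SP1 libraries alone, Nags missed the threshold (0.34) so that 1 member was called higher, Asl was called (-0.34), and Cps1 (-0.11) and Slc25a15 (-0.18) had the opposite sign; Arg1 over Asl missed it too (-0.12, adjusted p = 0.229). Asl over Ass1 (0.53) and Glul over Gls2 (1.10) had the smallest exact permutation p that 4 against 4 livers can give (0.0286, adjusted 0.0762), so missing the threshold there says nothing of their stability. Otc was called without LPD replicates 2 and 5 (-0.43) and by limma-voom (-0.29). Without LPD replicates 2 and 5, Otc over Cps1 passed (-0.44), Arg1 over Asl did not (-0.20), and 0 pairs of members passed for Spearman's rho. With LPD replicate 1 counted as SPD, Arg1 over Asl missed the threshold (-0.23) and Cebpa (-0.008) changed sign. The causes were not tested.

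Leaving out 1 library at a time gave ranges of -0.059 to 0.0997 for Slc25a15, which was negative without SPD replicate 5 (-0.015), SPD replicate 6 (-0.014) or LPD replicate 6 (-0.059), and for the log2 ratios of -0.27 to -0.19 for Arg1 over Asl, -0.39 to -0.22 for Otc over Cps1, -0.51 to -0.35 for Ass1 over Otc and -0.21 to -0.13 for Slc25a12 over Slc25a13.

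The replicate numbers pair no samples: same-numbered livers had correlations of deviations from -0.0539 to 0.0968, and 1 of 6 livers correlated best with its own number. With the replicate block, 5230 genes were called against 5496 without it, Cps1 was 0.09 and no member's call changed; by exact sign flips over pairs Arg1 over Asl (-0.22) had an adjusted p of 0.100, while Asl over Ass1 (0.52) and Glul over Gls2 (1.05) had the smallest p that 6 pairs can give (0.0312, adjusted 0.0833), which again says nothing of their stability. Depth limits Slc25a2 and Arg2, which rest on few counts.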
